A study of Homo sapiens with 12 samples.

Results

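The genes of cholesterol synthesis and its SREBP control are a set of 34 named genes, found by symbol in the 3 comparison tables of this series, out of 27146 genes listed in any of them. The set holds 7 enzymes of the mevalonate arm, 3 enzymes that make squalene and lanosterol, 8 enzymes on the path from lanosterol to cholesterol, 4 SREBP factors and sensors, 5 sterol transport genes and 7 genes of fatty acid synthesis. All 34 are listed for compound 1, against 33 each for SAHA and a6. NPC1L1, the intestinal sterol uptake protein, was listed for compound 1 alone, where its mean normalized count was 0.989, and no change is read from it. RNA was sequenced from the human cell line MDA-MB-231, which derives from a triple-negative breast tumour and was grown in medium with fetal bovine serum. Of 4 groups of 3 libraries each, 3 received a compound at 2.5 µM for 48 h: a6, which the series describes as hitting a pair of targets (HDAC, the histone deacetylases, and G4, the G-quadruplex fold of guanine-rich nucleic acid), SAHA, the HDAC inhibitor also called vorinostat, and compound 1, with SAHA and 1 each described as hitting a single target. The remaining group, Ctrl, received DMSO for 48 h.

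Cells make cholesterol from acetyl-CoA through mevalonate, squalene and lanosterol, and they tune the whole path through the transcription factors encoded by SREBF1 and SREBF2. These factors are made as precursors in the membrane of the endoplasmic reticulum. When sterols are scarce the escort protein SCAP carries them to the Golgi, where proteases free the part that enters the nucleus; when sterols are plentiful the INSIG proteins hold SCAP back. Products of SREBF1 mainly drive genes of fatty acid synthesis and desaturation, those of SREBF2 mainly genes of cholesterol synthesis, and INSIG1 is itself an SREBP target. Much of this control acts on the protein, which RNA levels do not show.

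SAHA lowered 5 of the 33 listed genes and raised 0: the sterol sensor INSIG1 and the fatty acid genes FASN, FADS2, SCD and FADS1. With a6, 1 of 33 fell, SCD, and 0 rose. With compound 1, 0 of 34 changed. A gene is called changed where its adjusted p in the authors' deposited table, from their DESeq2 Wald test with Benjamini-Hochberg adjustment over the table, is under 0.05. Among all genes tested the call went to 7.55% of 18534 genes with SAHA (3.02% in the lower direction), to 0% of 27126 with compound 1 and to 0.583% of 15255 with a6 (0.341% in the lower direction). The share of members called lower with SAHA thus rests on 5 genes against a background of 560 lower genes, and with a6 on 1 gene against 52. The median log2 fold change of the listed members was -0.22 with a6, -0.05 with SAHA and -0.11 with compound 1, against -0.03, -0.01 and 0.01 over all genes of the same tables. With a6, 25 of 33 members lay below 0, 75.8%, against 54.1% of all genes. In bulk RNA fewer cells carrying a transcript and less of it per cell cannot be told apart.

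Values are mean normalized counts per group, worked out from the mean over both groups and the fold change of each table. Those tables hold no value per library, so no spread per group can be printed, and whether the libraries of a compound and of Ctrl overlap is not shown here. The error beside each log2 fold change, written log2 change from here on, is the standard error (SE) that the authors' deposited table gives. The labels call the libraries biological replicates without naming separate cultures, so p-values reflect how far these libraries differ from each other, which may in part be technical. The least counted gene listed had a mean of 2.44 with SAHA, 0.145 with compound 1 and 9.31 with a6.

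The line's label was checked on 4 markers expected to be high and 6 luminal markers expected to be low, with mixed results. Of the 4, VIM, KRT18 and CD44 were high in each group, VIM at 17201 with a6, 17119 with SAHA, 19531 with compound 1 and 21149 in Ctrl of the SAHA table, while SPARC was low, at 23.4 with a6, 45.7 with SAHA, 16.8 with compound 1 and 24.8 in Ctrl of the SAHA table. Among the 6 luminal markers the hormone receptor genes ESR1 and PGR, which luminal breast cells express, were listed for compound 1 alone and lay under 1 count, ESR1 at 0.318 with compound 1 and 0.660 in Ctrl. FOXA1 has no value in the tables used and CDH1 was at 13.5 with SAHA and 5.04 in Ctrl, but EPCAM was at 107 with a6, 109 with SAHA, 171 with compound 1 and 172 in Ctrl of the SAHA table, and GATA3 was at 68.4 with a6, 63.3 with SAHA, 87.7 with compound 1 and 75.8 in that Ctrl. Of 8 markers of blood, endothelial and fibroblast cells, PTPRC, CD3E, HBB and DCN have no value in the tables used, and 3 were listed with SAHA, 4 with compound 1 and 0 with a6. Their summed count was 80.9 with SAHA and 5.63 in Ctrl, carried by LUM (49.3 with SAHA, 0.378 in Ctrl) and VWF (23.0 with SAHA, 1.41 in Ctrl), and 9.60 with compound 1 and 5.95 in Ctrl. Their part in the SAHA results was not tested.

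The plot of fold changes shows the whole set by compound.

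**Figure D1:**
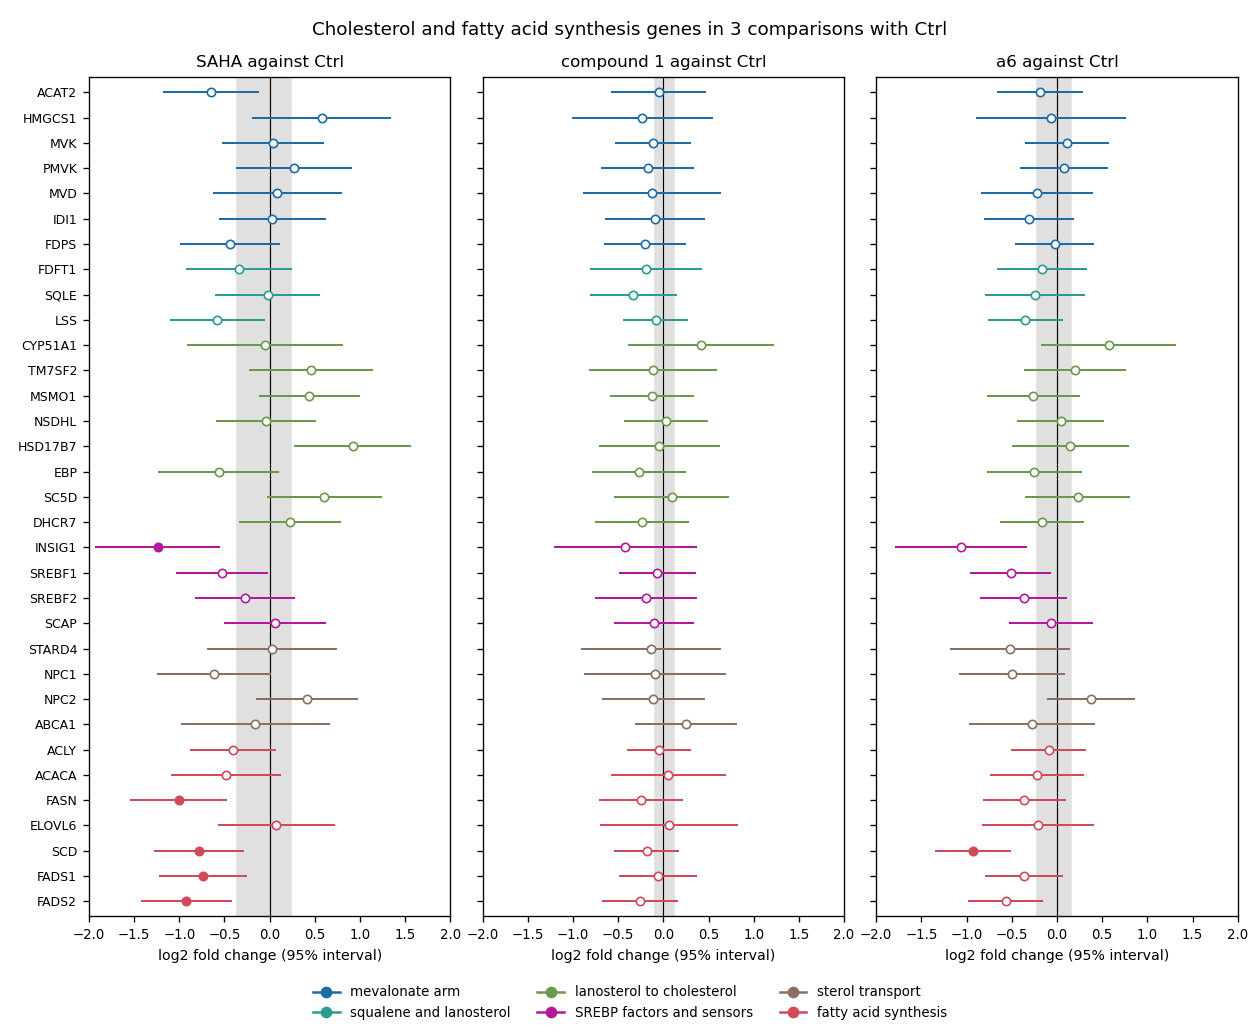
Log2 change of each member against Ctrl (x axis) with SAHA, compound 1 and a6, as the authors' deposited table gives it; lines are 95% intervals, filled points have an adjusted p under 0.05, colours mark the groups of function and the grey band holds the middle of all genes with a mean count of 50 or more (between the lower and upper quartile). NPC1L1 is left out. Filled points are 5 with SAHA, 0 with compound 1 and 1 with a6, and each of them lies below 0.

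Among the 4 SREBP factors and sensors 1 was called, INSIG1 with SAHA. INSIG1 (chr7:155297776-155310235, GRCh38, GENCODE 29) anchors SCAP and the SREBP precursors in the endoplasmic reticulum. Its mean count was 477 with SAHA and 1127 in Ctrl, 841 with compound 1 and 1124 in Ctrl, and 527 with a6 and 1100 in Ctrl. In the authors' deposited table it fell with SAHA by 1.24 on the log2 scale, SE 0.35, a level 2.36-fold lower, with an adjusted p of 0.00868. With a6 the log2 change in the authors' deposited table was -1.06, SE 0.37, and it did not pass after adjustment (p 0.00381, adjusted p 0.225). With compound 1 the authors' deposited table gives -0.42, SE 0.40, near the size of its own error. INSIG1 had the lowest log2 change of any counted member with each compound, and its 2.09-fold lower level with a6 stayed short of the test.

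SREBF1, which encodes the precursors of factors that drive lipogenic genes, had a mean count of 1450 with a6 and 2070 in Ctrl, and of 1469 with SAHA and 2117 in Ctrl. Its log2 changes in the authors' deposited table were -0.51 with a6 (SE 0.23, adjusted p 0.533) and -0.53 with SAHA (SE 0.26, adjusted p 0.236), and neither passed. With compound 1 it was at 2020 against 2113 in Ctrl. SREBF2, which encodes the main factor for cholesterol genes, had log2 changes of -0.37 with a6, -0.27 with SAHA and -0.19 with compound 1 in the authors' deposited table, each with a 95% interval that spans 0. SCAP, the escort, lay closest to Ctrl of these genes with a6 and SAHA, at 2072 with a6 and 2170 in Ctrl, and at 2310 with SAHA and 2221 in Ctrl. Antisense or overlapping annotation on the other strand (SREBF2-AS1, and RAI1 at SREBF1) makes the counts of both factor genes uncertain. As a group the 4 had a median log2 change of -0.44 with a6, -0.40 with SAHA and -0.15 with compound 1.

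The stretch before the transcription start was read for 30 of the 34 genes, from RefSeq promoter windows on GRCh38.p14. ACAT2, FASN, FDFT1 and SQLE had no window. Sequences are shown for INSIG1 and SCD, which fell, for FADS2, which fell and holds none of the motifs searched, and for SREBF2, the only member with a sterol regulatory element match. Capitals mark motif matches on either strand. INSIG1 is shown for chr7:155297628-155297877, SCD for chr10:100346983-100347232, FADS2 for the first of its windows at chr11:61815953-61816202 and SREBF2 for chr22:41832855-41833104, all on the plus strand and written 5′ to 3′, ending at the base before the start.
INSIG1: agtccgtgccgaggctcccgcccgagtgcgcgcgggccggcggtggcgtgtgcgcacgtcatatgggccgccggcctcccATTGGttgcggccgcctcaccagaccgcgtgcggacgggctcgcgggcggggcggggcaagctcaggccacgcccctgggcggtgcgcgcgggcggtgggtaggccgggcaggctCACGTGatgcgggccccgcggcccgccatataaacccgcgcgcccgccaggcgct
SCD: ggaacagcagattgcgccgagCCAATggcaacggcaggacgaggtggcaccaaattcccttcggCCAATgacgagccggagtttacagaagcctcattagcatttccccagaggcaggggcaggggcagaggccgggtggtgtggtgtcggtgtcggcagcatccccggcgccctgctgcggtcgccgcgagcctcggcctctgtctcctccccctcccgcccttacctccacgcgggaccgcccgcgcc
FADS2: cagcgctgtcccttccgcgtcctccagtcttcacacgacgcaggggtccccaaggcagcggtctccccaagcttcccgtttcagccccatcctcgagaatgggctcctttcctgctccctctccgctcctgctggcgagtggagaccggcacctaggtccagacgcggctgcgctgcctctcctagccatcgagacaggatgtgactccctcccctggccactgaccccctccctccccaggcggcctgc
SREBF2: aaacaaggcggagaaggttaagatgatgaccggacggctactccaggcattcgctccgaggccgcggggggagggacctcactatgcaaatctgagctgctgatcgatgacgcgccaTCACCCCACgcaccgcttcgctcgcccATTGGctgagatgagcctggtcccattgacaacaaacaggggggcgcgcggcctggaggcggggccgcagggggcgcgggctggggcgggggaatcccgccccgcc
The sterol regulatory element motif searched, TCACNCCAC, is the kind of site SREBPs bind; SREBF2 holds it as TCACCCCAC at -133 from the start. It lies in the windows of 1 of 30 members, 3.33%, against 1.09% of 27305 genes with a window. CCAAT, the site of the factor NF-Y, a common partner of SREBPs, lies in 21 of 30 members, 70.0%, against 37.0% of all genes and 41.3% of the 8874 genes with a mean count of 50 or more in the compound 1 table. INSIG1 holds it at -170 as ATTGG, its form on the other strand, SREBF2 at -106 likewise, and SCD at -229 and -186, while the windows of FADS1 and FADS2 hold none. MVK, a mevalonate enzyme that passed no test, holds 5. The E-box CACGTG, which reads the same on both strands, lies at -55 in INSIG1 and in 4 of 30 members (ABCA1, INSIG1, SC5D and SCAP), 13.3%, against 7.73% of all genes and 11.7% of those with a mean count of 50 or more. A pattern of 4 runs of at least 3 G with gaps of 1 to 7 bases, a common text rule for G4 and not marked here, lies on either strand in 14 of 30 members, 46.7%, against 26.3% of all genes and 40.8% of those with a mean count of 50 or more. INSIG1, FADS1 and SREBF2 hold it and SCD and FADS2 do not. In the windows printed no marked match overlaps another, and a match is a description of the window.

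The 7 fatty acid members carried most of the SAHA calls: 4 of 7 fell, 0 rose, and the median log2 change of the 7 was -0.74 with SAHA, against -0.01 over all 18534 genes. The 14 other genes of fatty acid synthesis in the wider list had 0 calls with SAHA. Of all genes, 7.55% were called with SAHA and 3.02% were called lower. Of the 14, 11 lay above 0 and 3 below, and their median was 0.22. ELOVL1, an elongase of long-chain fatty acids, was at 0.67 (adjusted p 0.150) in the authors' deposited table. ME1, the malic enzyme that supplies NADPH, was at 0.76 (adjusted p 0.0554) in the same source. When SAHA fold changes were centred on their median, ME1 was at 0.82 with an adjusted p of 0.0319 and gained a call. FASN (chr17:82078333-82098332), the synthase that builds palmitate, had a mean count of 5226 with SAHA and 10497 in Ctrl. In the authors' deposited table it fell with SAHA by 1.01 on the log2 scale, SE 0.27, a level 2.01-fold lower with an adjusted p of 0.00523. After a trend of fold change on GC content was removed, that value was -0.71 with an adjusted p of 0.0906, so the FASN call rests on the values as deposited. FASN was at 7976 with a6 and 10257 in Ctrl, and at 8819 with compound 1 and 10465 in Ctrl, with log2 changes of -0.36 and -0.25 in the authors' deposited table that did not pass.

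SCD (chr10:100347124-100364834), the desaturase that makes oleate from stearate, was the gene lowered by both a6 and SAHA. Its mean count was 1629 with a6 and 3102 in Ctrl, 1841 with SAHA and 3172 in Ctrl, and 2784 with compound 1 and 3167 in Ctrl. In the authors' deposited table SCD fell with a6 by 0.93 on the log2 scale, SE 0.21, 1.90-fold lower with an adjusted p of 0.00414. It fell with SAHA by 0.78, SE 0.25, adjusted p 0.0267, in the authors' deposited table, which is 1.72-fold lower. Both comparisons use the same Ctrl libraries, and the annotated copy SCDP1 leaves some doubt over the SCD count. With compound 1 the authors' deposited table gives -0.19, SE 0.18.

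FADS1 and FADS2 encode the desaturases that insert double bonds into polyunsaturated fatty acids. FADS2 (chr11:61792980-61867354, plus strand) was at 1489 with SAHA and 2827 in Ctrl, and fell by 0.93 on the log2 scale in the authors' deposited table (SE 0.25, adjusted p 0.00611). FADS1 (chr11:61799625-61829318, minus strand) was at 1306 with SAHA and 2177 in Ctrl, and fell by 0.74 in the authors' deposited table (SE 0.24, adjusted p 0.0371). The annotated spans of FADS1 and FADS2 overlap on opposite strands and whether reads were counted by strand is not known here. The values of this pair are therefore uncertain and not independent. FEN1 overlaps FADS2 on the same strand, so counting by strand would not remove all doubt over the FADS2 count. FADS1 also lost its call, at -0.67 and an adjusted p of 0.0659, when SAHA fold changes were centred on their median. With a6, FADS2 was at 1863 and 2764 in Ctrl (log2 change -0.57, SE 0.21, adjusted p 0.275 in the authors' deposited table), and FADS1 at 1660 and 2131 in Ctrl.

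The other 3 fatty acid genes passed no test. ACLY, which makes cytosolic acetyl-CoA from citrate, was at 4873 with SAHA and 6455 in Ctrl, and ACACA, which makes malonyl-CoA, at 888 with SAHA and 1240 in Ctrl. Their log2 changes in the authors' deposited table were -0.41 for ACLY and -0.48 for ACACA, with intervals that reach above 0. ELOVL6, the elongase of palmitate, was at 661 with SAHA and 629 in Ctrl. With a6 all 7 fatty acid genes had log2 changes below 0, between -0.93 and -0.09, and a median of -0.36, against -0.03 over all 15255 genes; 1 of the 7 passed the test. With compound 1, 5 of 7 lay below 0 and the median was -0.06.

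**Figure D2:**
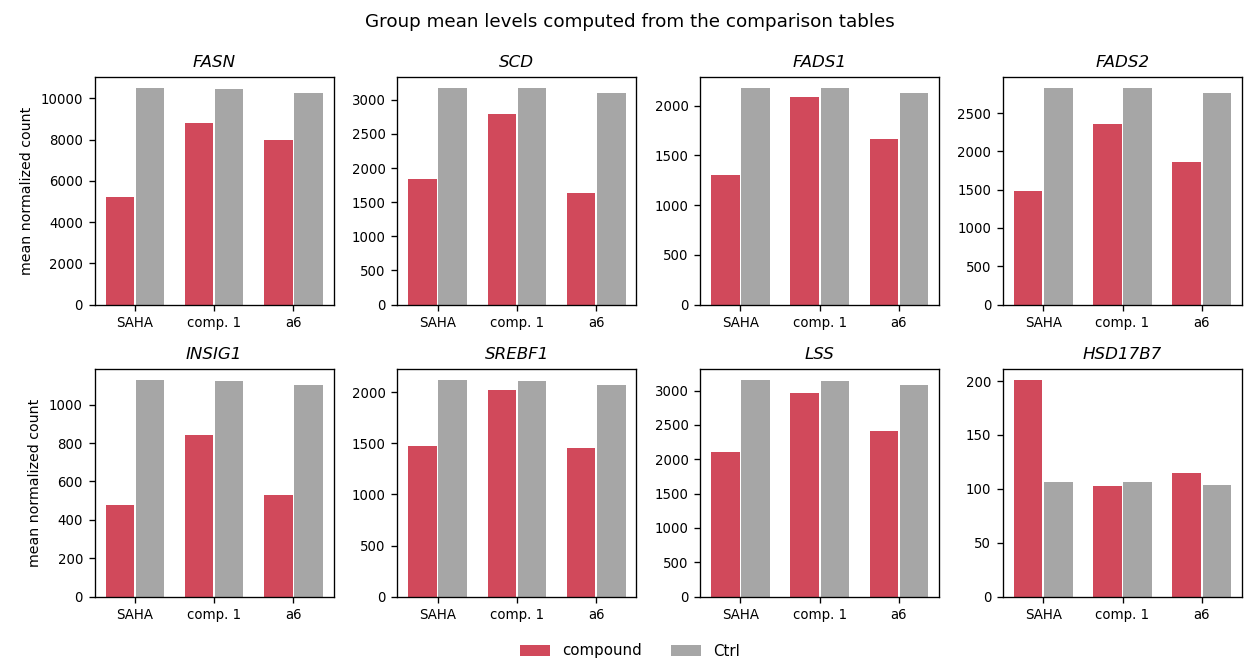
Mean normalized count (y axis, from 0) of 8 members with each compound (red, left bar) and in Ctrl of the same table (grey, right bar), computed from the authors' deposited table; the files used hold no spread per group, so no error bars are drawn. FASN, SCD, FADS1, FADS2 and INSIG1 are lower with SAHA, SCD is lower with a6, and the bars of compound 1 stay nearest to Ctrl for these 5 genes.

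The 18 enzymes from ACAT2 to DHCR7, which carry acetyl-CoA to cholesterol, held no called gene. The call went to 7.55% of all genes with SAHA, which leaves few calls for a list of this size. Intervals with SAHA lay within a 2-fold change for 18 of 33 members and within 1.5-fold for 0. A missing call with SAHA thus does not show a lack of change. With SAHA 10 of the 18 lay above 0 and 8 below, and their median log2 change was 0.03, against -0.74 for the 7 fatty acid genes. With a6 the median was -0.11 with 11 below 0, and with compound 1 it was -0.12 with 15 below 0.

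In the mevalonate arm the SAHA values ran from -0.64 to 0.57. HMGCS1, the synthase that precedes mevalonate formation, was at 277 with SAHA and 186 in Ctrl, a log2 change of 0.57 with an SE of 0.39 in the authors' deposited table. ACAT2, which joins acetyl-CoA units, was at 719 with SAHA and 1124 in Ctrl; its log2 change in the authors' deposited table was -0.64, SE 0.27, with a p of 0.0152 that became 0.130 after adjustment. ACAT2 overlaps TCP1 and SOD2 on the opposite strand, so its count is uncertain. The kinases MVK and PMVK, the decarboxylase MVD and the isomerase IDI1 stayed within 0.27 of 0 with SAHA on the log2 scale. FDPS, which makes farnesyl diphosphate and has several annotated pseudogene copies, was at 2350 with SAHA and 3179 in Ctrl, and the authors' deposited table gives an adjusted p of 0.434. With a6 the arm ran from -0.31 for IDI1 to 0.11 for MVK, and with compound 1 from -0.23 for HMGCS1 to -0.05 for ACAT2.

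Of the enzymes that build squalene and lanosterol, LSS, which closes the ring to lanosterol, had the log2 changes farthest from 0 with a6 and SAHA, without a call. It was at 2110 with SAHA and 3150 in Ctrl, a log2 change of -0.58 in the authors' deposited table (SE 0.26, adjusted p 0.186), and at 2416 with a6 and 3079 in Ctrl, a log2 change of -0.35 in the same source (adjusted p 0.798). FDFT1, squalene synthase, had -0.34 with SAHA and -0.17 with a6 in the authors' deposited table. SQLE, squalene epoxidase, was nearly level with SAHA, at 262 and 266 in Ctrl, and at 211 with compound 1 and 266 in Ctrl, a log2 change of -0.33, SE 0.24, in the authors' deposited table.

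From lanosterol on, the SAHA values lay mostly above 0, with a median of 0.33 over 8 enzymes and 5 above 0. HSD17B7, the 3-ketosteroid reductase of this path, had the highest value of any member with SAHA, at 201 and 106 in Ctrl. Its log2 change in the authors' deposited table was 0.92, SE 0.32, and its adjusted p of 0.0567 missed the threshold; centred on the median fold change it was 0.98 with an adjusted p of 0.0361. The annotated copies HSD17B7P1 and HSD17B7P2 make that count uncertain. SC5D, the desaturase of the sterol ring, was at 355 with SAHA and 233 in Ctrl (log2 change 0.61, SE 0.32, adjusted p 0.289 in the authors' deposited table), and at 268 with a6 and 229 in Ctrl. TM7SF2, a sterol reductase, and MSMO1, an oxidase of sterol methyl groups, had 0.46 and 0.44 with SAHA in the authors' deposited table. EBP, the sterol isomerase, had -0.56 and DHCR7, a late reductase, 0.22 with SAHA in the same source. NSDHL, the decarboxylating dehydrogenase that acts after MSMO1, lay within 0.05 of 0 with each compound. CYP51A1, the lanosterol demethylase and one of the least counted members, had the highest log2 change of the counted members with a6, at 66.7 against 44.9 in Ctrl, and with compound 1, at 61.1 against 45.8 in Ctrl, with log2 changes of 0.57 (SE 0.38) and 0.42 (SE 0.41) in the authors' deposited table that did not pass. CYP51A1 too has annotated copies that make its count uncertain.

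Sterol transport genes passed no test with any compound. NPC1, the lysosomal membrane protein that exports cholesterol, was at 3912 with a6 and 5509 in Ctrl, and at 3679 with SAHA and 5642 in Ctrl. Its log2 changes in the authors' deposited table were -0.49 (SE 0.29) with a6 and -0.62 (SE 0.32) with SAHA. NPC2, the soluble protein of the lysosome that hands cholesterol to NPC1, ran the other way, at 2974 with a6 and 2286 in Ctrl, and at 3112 with SAHA and 2341 in Ctrl, log2 changes of 0.38 and 0.41 in the authors' deposited table. STARD4, a carrier of sterols through the cytosol, was at 114 with a6 and 163 in Ctrl, and at 169 with SAHA and 166 in Ctrl. ABCA1, the exporter of cholesterol induced through the nuclear receptors LXR, was at 162 with compound 1 and 136 in Ctrl, and at 110 with a6 and 133 in Ctrl.

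Compound 1 left the set without a call, and 0 of 34 members had an unadjusted p under 0.05, against 54 of all 27126 genes. So few genes reached that p that 0 of 34 says little about the members. Its log2 changes ran from -0.42 for INSIG1 to 0.42 for CYP51A1 among members with a mean count of 50 or more. Of the 34 members 27 lay below 0, 79.4%, with a median of -0.11, against 48.6% and 0.01 over all genes. The members' intervals lay within a 2-fold change for 31 of 34 and within 1.5-fold for 10. Next to INSIG1 the lowest values in the authors' deposited table were those of SQLE (-0.33) and EBP (-0.27), and next to CYP51A1 the highest were those of ABCA1 (0.25) and SC5D (0.09). The spread of the deposited Wald statistic over genes with a mean count of 50 or more was 0.516 (SD) with compound 1, against 1.11 with a6 and 1.68 with SAHA. With compound 1 that spread is narrower than the Wald test assumes for unchanged genes. A missing call with compound 1 thus does not show a lack of change. Beside this, the 13 mitochondrially encoded genes, a gauge of RNA quality, had a median log2 change of -0.23 with compound 1 and 13 of 13 lay below 0, with 0 called; with a6 the median was -0.01 and with SAHA 0.06. Their part in the members' values was not tested.

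The compounds were compared with each other at the same dose and time in 3 pairs, as differences of their log2 changes with a two-sided z test whose p-values were adjusted over all genes in both tables. In none of the 3 pairs was a member called. Over all genes the call went to 0.256% for a6 minus SAHA, 0.0328% for a6 minus 1 and 1.06% for SAHA minus 1. The p-values and intervals treat the errors of both compounds as independent, though they share the Ctrl libraries. This makes the z test conservative, with p-values that tend to be too large and intervals too wide.

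The differences with the smallest p were mostly those of the fatty acid genes. SCD had a difference of -0.74 for a6 minus 1, with a 95% interval of -1.28 to -0.21, a p of 0.00681 and an adjusted p of 0.9998. With an error correlation of 0.5 for the shared Ctrl, the same difference had an adjusted p of 0.0492. FASN had -0.76 for SAHA minus 1, interval -1.45 to -0.07, with an adjusted p of 0.594, and of 0.0489 with the error correlation of 0.5. FADS1 and FADS2 had -0.68 and -0.67 for SAHA minus 1, with adjusted p of 0.615 and 0.653. HSD17B7 had 0.96 for SAHA minus 1, interval 0.05 to 1.87, adjusted p 0.633.

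Between a6 and SAHA no member had an unadjusted p under 0.05 in the z test with independent errors. With an error correlation of 0.5 no member was called for this pair either. SCD differed by -0.14 for a6 minus SAHA, with an interval of -0.78 to 0.49, and INSIG1 by 0.18, interval -0.81 to 1.17. FASN differed by 0.64, interval -0.05 to 1.34, and MSMO1 by -0.70, interval -1.44 to 0.04. These intervals, for independent errors, leave room for differences of 2-fold and more in INSIG1, FASN and MSMO1, and for smaller ones in SCD. With an error correlation of 0.5 they would be narrower, so the room left depends on that setting. The values thus do not show that the compounds act alike on the set. The median difference of the 7 fatty acid genes was 0.31 for a6 minus SAHA and -0.28 for a6 minus 1, and that of the 18 cholesterol enzymes -0.20 and 0.08 in the same pairs.

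**Figure D3:**
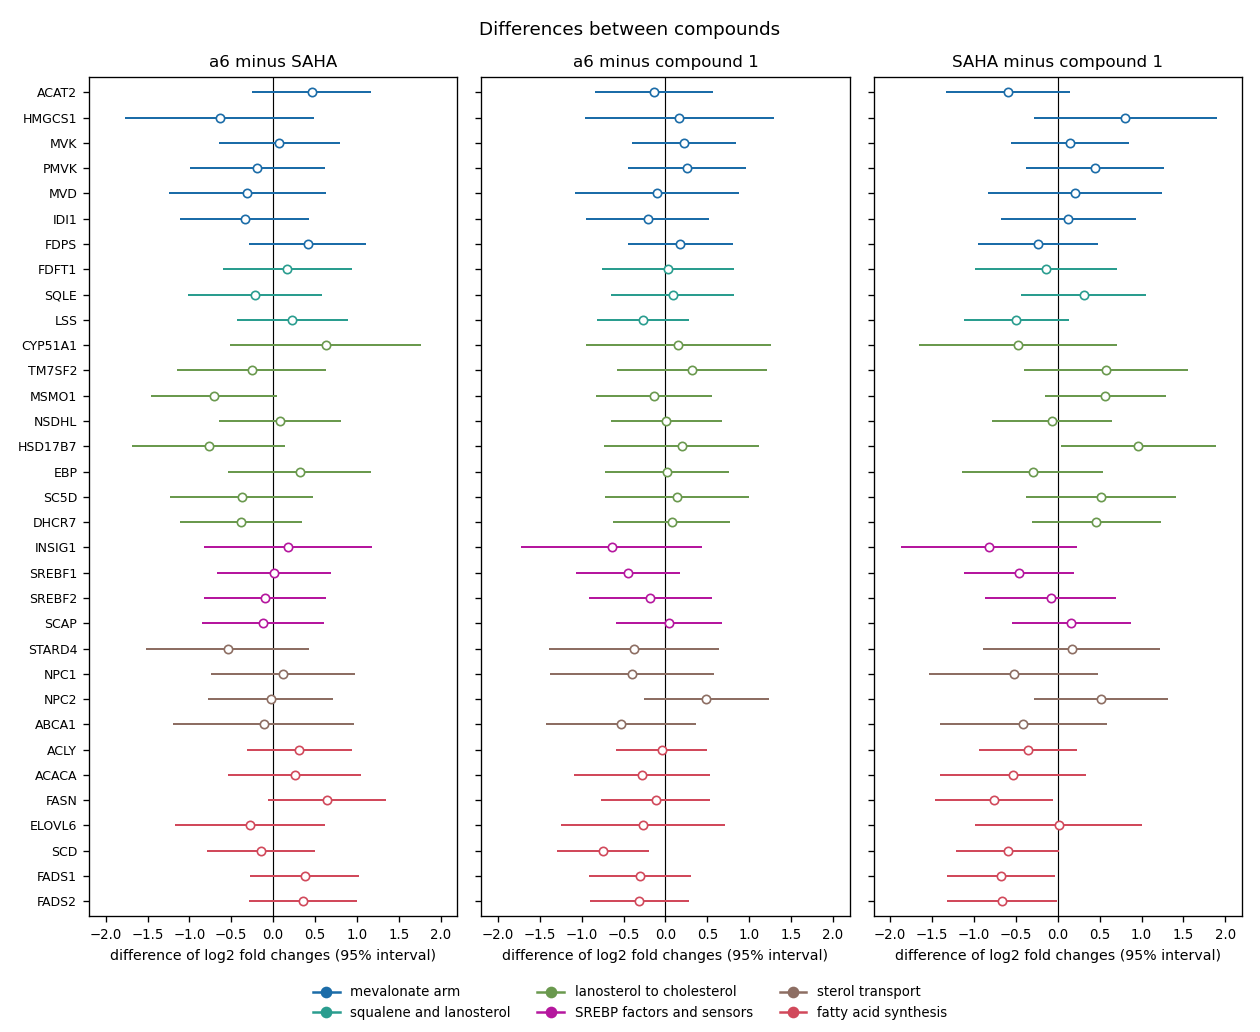
Difference between compounds in the log2 change of each member (x axis) for a6 minus SAHA, a6 minus 1 and SAHA minus 1; lines are 95% intervals for independent errors and colours mark the groups of function. No point is filled, since 0 members had an adjusted p under 0.05 in any pair. In a6 minus 1 the interval of SCD (-0.74) lies below 0. In SAHA minus 1 those of FASN (-0.76), FADS1 (-0.68) and FADS2 (-0.67) lie below 0 and that of HSD17B7 (0.96) above.

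Genes of the same path that are not in the set were read from a list of 44. With SAHA 2 of 44 rose and 1 fell, with compound 1 0 of 44 changed and with a6 0 of 42. Over all genes the call went to 7.55% with SAHA, 0% with compound 1 and 0.583% with a6. The list's counts are near those shares and are not read as a result about the path. LIPA, the lysosomal acid lipase that frees cholesterol from its esters, was at 2445 with SAHA and 838 in Ctrl, a rise of 1.54 on the log2 scale, SE 0.25, adjusted p 1.72e-07, in the authors' deposited table. It was at 1170 with a6 and 819 in Ctrl, a log2 change of 0.51 in the authors' deposited table (adjusted p 0.548). LIPA was higher with SAHA than with compound 1 by 1.47, interval 0.85 to 2.09, adjusted p 0.00129 in the z test. ABCG1, a cholesterol exporter and LXR target, was at 114 with SAHA and 27.0 in Ctrl, a rise of 2.08, SE 0.46, adjusted p 0.00031, in the authors' deposited table. It was the 1 called gene among 6 listed for LXR and its targets, of which 4 lay above 0 with SAHA and 2 below. ABCA1, the member induced through LXR, was at 122 with SAHA and 136 in Ctrl. Its log2 change was -0.16, SE 0.42, in the authors' deposited table, without a call.

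SCARB1, the receptor that takes up cholesterol from high density lipoprotein, was at 744 with SAHA and 1399 in Ctrl, and fell by 0.91, SE 0.28, adjusted p 0.0228, in the authors' deposited table; with the GC trend removed its adjusted p was 0.0598. CYP27A1, which makes an oxysterol from cholesterol, had the lowest value of the list with a6, at 108 and 201 in Ctrl, and with SAHA, at 99.3 and 206 in Ctrl, without a call (adjusted p 0.459 with a6 and 0.0935 with SAHA in the authors' deposited table). INSIG2, which shares the role of INSIG1, was at 410 with SAHA and 263 in Ctrl, and its adjusted p in the authors' deposited table was 0.182. The LXR genes NR1H2 and NR1H3 had SAHA values of -0.10 and 0.14 in the authors' deposited table, with no call. The remaining named values, from the authors' deposited table, had no call among them. With a6, ACSL1, which activates fatty acids, had 0.32, and OSBPL5, a lipid transfer protein, had -0.51 (SE 0.36). With compound 1, SOAT1, which esterifies cholesterol, and RNF139, a ubiquitin ligase, each had 0.27. TECR, a reductase of fatty acid elongation, had -0.28 with compound 1.

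**Figure D4:**
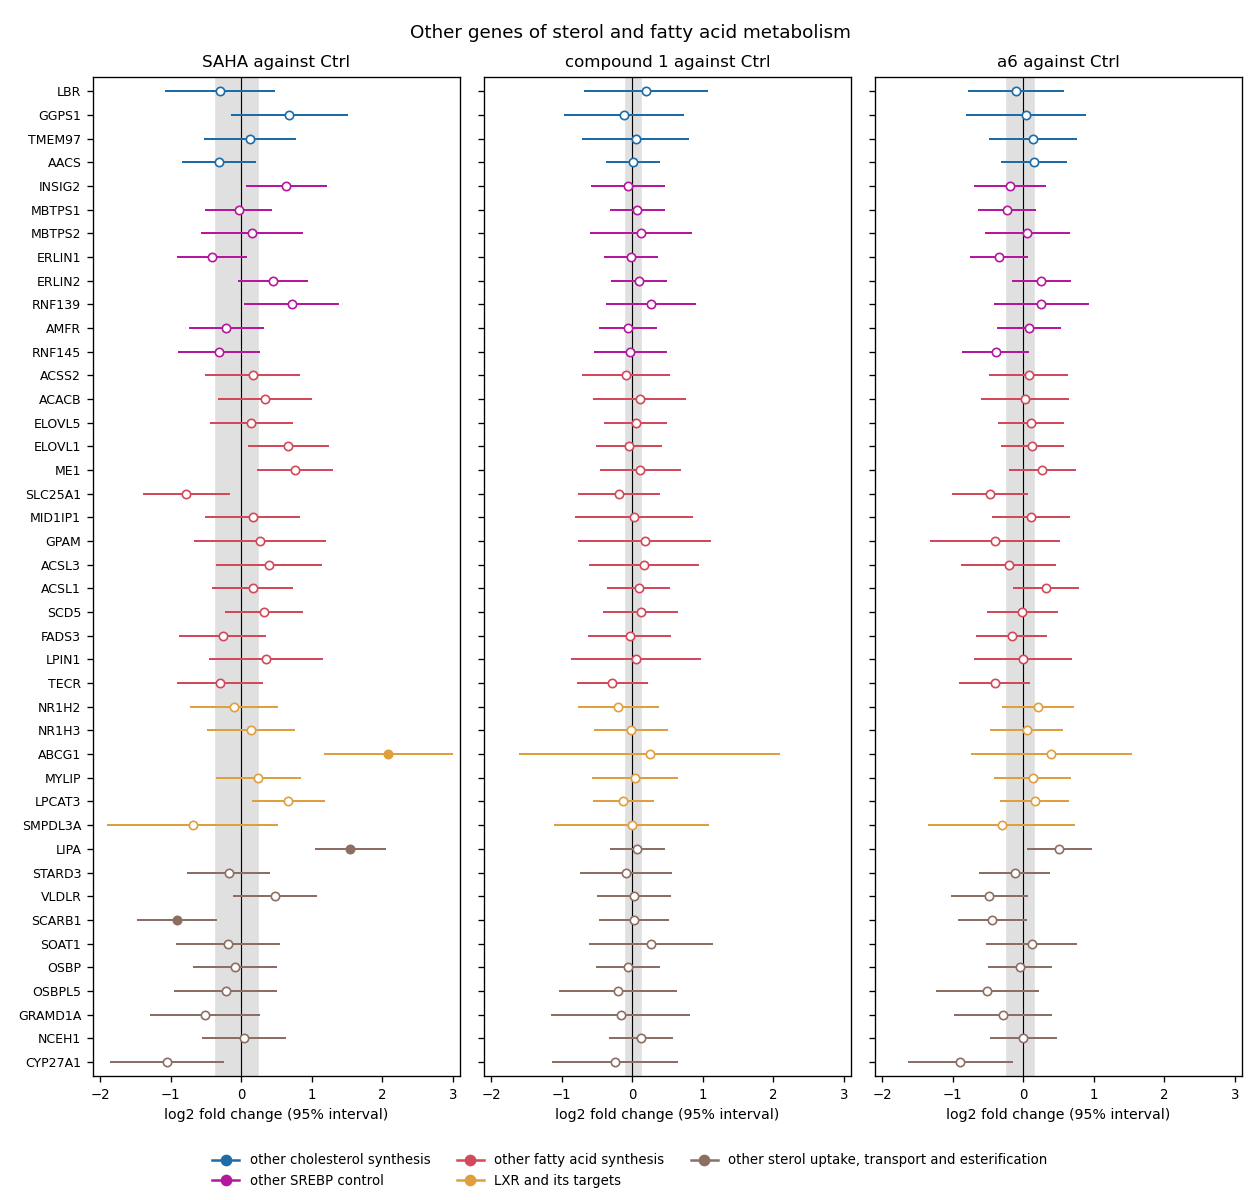
Log2 change against Ctrl (x axis) of other genes of sterol and fatty acid supply with SAHA, compound 1 and a6, as the authors' deposited table gives it; lines are 95% intervals, filled points have an adjusted p under 0.05 and the grey band holds the middle of all genes with a mean count of 50 or more (between the lower and upper quartile). GRAMD1B and CH25H are left out; with SAHA, LIPA (1.54) and ABCG1 (2.08) are filled above 0 and SCARB1 (-0.91) below.

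Per kilobase of the longest coding transcript, the Ctrl level of members in the compound 1 table ranged over several orders of size. FDPS was highest, at 2146 counts per kilobase, followed by NPC2 at 1626, ACLY at 1485 and FASN at 1222. The other genes lowered by SAHA reached down to the middle of the order. FADS2 was at 777, SCD at 591, FADS1 at 481 and INSIG1 at 373 counts per kilobase, ranks 8, 11, 14 and 16 of 34. HMGCS1 was at 53.1, STARD4 at 36.2 and CYP51A1 at 14.3, with ABCA1 just under CYP51A1 and NPC1L1 last. With no spread per group, neighbours in this order are not told apart. Annotated genes on the other strand also overlap ACLY, CYP51A1, FDFT1, FDPS, HMGCS1, IDI1, LSS, MVK, NPC1, NPC2 and STARD4, and LIPA of the other path genes called. Annotated genes on the same strand overlap CYP51A1, FADS1, FADS2, NPC2 and TM7SF2. All these counts may hold reads of a partner.

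The authors' own lists of changed genes, which take another rule than an adjusted p, hold few of the members. Their list of 609 genes lower with SAHA holds INSIG1 and FASN. Their list of 248 genes lower with a6 holds INSIG1 and not SCD, which has the smaller adjusted p in the authors' deposited table. With SAHA INSIG1 was 2.36-fold and FASN 2.01-fold lower. With a6 INSIG1 was 2.09-fold and SCD 1.90-fold lower, so each member listed passed a 2-fold limit and SCD did not. Of their G4-related lists only the one of 440 genes for SAHA, lower direction, holds a member, FASN, with 4 G4s per the authors' deposited table.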

How the data were processed

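RNA of 12 MDA-MB-231 libraries (4 groups of 3) was sequenced; groups follow the treatment label. Per the submitters' processing notes, cutadapt and DESeq2 were used with GRCh38 (hg38); the aligner, counter, versions and strand use: not given in the sources used here. Per the file headers, the authors give in each comparison table a signal, the mean normalized count over both groups, and a log2 fold change, with scores (its standard error and the Wald statistic) and the raw and adjusted p-value. In the deposited G4-related lists each gene has its number of G4s, per the file headers. Checked on the values, the Wald statistic is fold change divided by error, and the adjusted p follows Benjamini-Hochberg over each table. Values per library were not used here and their depth is unknown.

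Group means were computed as the pair of values, for equal groups, that give the deposited mean and fold change. Ctrl levels of members in different tables differed, after a constant, by an SD of 0.00105 to 0.00257 on the log2 scale, and the Ctrl libraries were taken to be shared. To compare compounds, one deposited log2 fold change was subtracted from the other, with errors added in quadrature and a two-sided z test, adjusted by Benjamini-Hochberg; this was tested on simulated data. Positions, GC content and transcript length come from GENCODE 29, where 95.8% (SAHA), 94.0% (compound 1) and 96.7% (a6) of genes were found. Promoter windows are the 250 bases before RefSeq starts. Alternatives were an adjusted p under 0.01, a 2-fold limit, a minimum mean count of 10 or 50, centring on the median, removal of a lowess trend on GC content (share 0.3), an error correlation of 0.5 and adjustment over the 3 pairs.

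Members with a call are named with full statistics, then the 3 highest and 3 lowest members per comparison with a mean count of at least 50; of the other path genes, those called and the 2 highest and 2 lowest. CYP51A1 falls under that count with SAHA. Further members were named by role. The members and lists were chosen with earlier results of these data known. The CCAAT, E-box and G-run patterns and the windows printed beside that of SREBF2 were chosen after values were seen. Some genes of the path are not reported here. Python 3.11.15, pandas 2.3.3, scipy 1.17.1, statsmodels 0.14.6 and numpy 2.4.6 were used.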

Additional observations from a re-analysis of the deposited data

How the results depend on the processing

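No paired analysis was possible because the tables used hold no values per library; for the same reason leaving out a library and edgeR with TMM were not run. With SAHA, members lower numbered 5 as deposited, 3 at an adjusted p under 0.01 (INSIG1, FASN, FADS2) and 2 with a 2-fold limit (INSIG1, FASN); 4 were lower with the GC trend removed, without FASN. Centred on the median, 1 member was higher with SAHA, HSD17B7, and 4 were lower, without FADS1. So centred, ME1 of the other path genes also gained a call with SAHA (adjusted p 0.0319). With a6, SCD kept its call except under the 2-fold limit, which left 0 members. With an error correlation of 0.5, 1 member was lower for a6 minus 1 (SCD) and 1 for SAHA minus 1 (FASN), and calls over all genes rose to 44 for a6 minus 1, to 987 for SAHA minus 1 and to 540 for a6 minus SAHA, against 5, 197 and 39. Of the other path genes, LIPA (adjusted p 0.00206), ABCG1 (0.0427) and VLDLR (0.0285) then gained a call for a6 minus SAHA, and LPCAT3 (0.0224) and SCARB1 (0.0135) for SAHA minus 1. At an adjusted p under 0.01, calls over all genes were 820 with SAHA and 36 with a6, against 1399 and 89, and for the same 3 pairs 3, 87 and 16. No member or other path gene changed sign among its calls. Of all SAHA calls 60.0% were higher as deposited, 70.0% with the GC trend removed and 46.1% at a mean count of at least 50; for a6 minus SAHA the share was 23.1%, and 12.5% with the GC trend removed. Precision differs between members: errors of those with a mean count of at least 50 reached 0.416 with SAHA, 0.409 with compound 1 and 0.416 with a6.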
